A study of Mus musculus with 4 samples.

Results

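A group of 8 genes in the table encodes cholesterol synthesis enzymes or other targets of the transcription factor SREBP2, and their transcripts are described here in mouse LSK cells with and without Zfp521. The 8 genes, Hmgcs1, Idi1, Fdps, Fdft1, Sqle, Lss, Cyp51 and Insig1, were chosen by gene symbol, with earlier results of these data known. The table holds 24421 genes, and all 8 had enough reads to be tested. RNA was sequenced from LSK cells, the Lin-neg, cKit-positive and Sca1-positive bone marrow fraction that holds stem cells and multipotent progenitors, purified by flow cytometry. There were 2 knockout (KO) libraries from Zfp521-/- mice and 2 wild-type (WT) libraries from their control littermates. The labels describe independent RNA samples from cell pools and name no further allele or agent; the sources used here do not give the strain, age or number of the mice or say whether the deletion was limited to some cells. Nothing in the labels says that the 2 samples of a group came from different animals. Sex-linked transcripts, given below, show different animals for the WT pair and do not settle it for the KO pair. The p-values cover only the variation seen between such samples, part of which can be technical. The single comparison, KO against WT, asks which transcripts of this fraction differ with the genotype.

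Animal cells build cholesterol from acetyl-CoA through mevalonate, isoprenoid pyrophosphates, squalene and a series of sterols. When sterols in the endoplasmic reticulum are scarce, SCAP carries SREBP2 to the Golgi, where it is cut and released to activate genes of the whole route and of sterol uptake. INSIG proteins hold SCAP back when sterols are plentiful, and INSIG1 is itself made under SREBP control, which closes a feedback loop. Dividing cells need sterols for new membrane, and the isoprenoid intermediates also feed protein prenylation, dolichol and ubiquinone.

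Promoter sequence is shown for 4 of these genes because SREBP2 acts together with the factors NF-Y and Sp1 at such promoters. RefSeq windows (GRCm38.p6) were at hand for 5 of the 8 genes, Idi1, Hmgcs1, Insig1, Cyp51 and Lss. Each line gives the 250 bases before the RefSeq transcript start on the strand of the gene, at chr13:8885356-8885605 on the plus strand for Idi1, chr13:119690101-119690350 on the plus strand for Hmgcs1, chr5:28071162-28071411 on the plus strand for Insig1 and chr5:4104698-4104947 on the minus strand for Cyp51. Capitals mark matches, on either strand, to the sterol regulatory element consensus TCACNCCAC, the CCAAT box, the GC box GGGCGG and the E-box CACGTG.
Idi1: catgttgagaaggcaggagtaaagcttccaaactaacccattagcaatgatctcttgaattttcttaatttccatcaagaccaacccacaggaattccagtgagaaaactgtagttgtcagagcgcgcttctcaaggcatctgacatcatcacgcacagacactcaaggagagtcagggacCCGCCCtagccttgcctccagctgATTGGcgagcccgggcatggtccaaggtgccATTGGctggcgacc
Hmgcs1: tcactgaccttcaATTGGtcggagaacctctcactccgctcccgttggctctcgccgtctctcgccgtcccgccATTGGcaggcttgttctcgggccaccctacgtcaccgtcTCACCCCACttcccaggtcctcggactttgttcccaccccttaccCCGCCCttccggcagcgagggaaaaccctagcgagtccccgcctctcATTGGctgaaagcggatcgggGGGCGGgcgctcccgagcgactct
Insig1: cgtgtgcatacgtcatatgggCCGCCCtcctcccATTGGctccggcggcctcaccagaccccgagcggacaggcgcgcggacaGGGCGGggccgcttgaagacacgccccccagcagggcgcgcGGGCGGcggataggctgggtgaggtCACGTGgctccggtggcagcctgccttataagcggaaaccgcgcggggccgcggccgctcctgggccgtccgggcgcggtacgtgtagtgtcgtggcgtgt
Cyp51: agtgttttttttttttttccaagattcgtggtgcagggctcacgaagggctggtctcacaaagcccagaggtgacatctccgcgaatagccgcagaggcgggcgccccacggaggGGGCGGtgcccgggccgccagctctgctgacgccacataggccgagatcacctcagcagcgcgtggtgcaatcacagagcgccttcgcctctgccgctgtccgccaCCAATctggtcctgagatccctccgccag

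The CCAAT box and the GC box each occurred in all 5 windows, against 33.8% and 32.7% of the 32851 windows of the same length. The sterol element consensus occurred in 1 of 5, that of Hmgcs1, where its letters TCACCCCAC lie from 137 to 129 bases before the start, against 1.05% of all windows. The E-box occurred in 1 of 5, that of Insig1, against 6.02% of all windows. None of these motifs overlapped another in the 5 windows. A match describes letters only, and a window without one says nothing about whether the factor binds there. The GENCODE vM21 annotation of the same build starts Idi1, Insig1, Cyp51 and Lss inside their windows, so part of each may be transcribed. All matches of Idi1 and the CCAAT box of Cyp51 lie past that start.

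All libraries had 17787425 to 29863594 counts, and the targeted gene followed the labels. Zfp521 had 308 and 215 counts in KO and 1561 and 1429 counts in WT (edgeR quasi-likelihood test, log2 fold change -2.19, adjusted p = 0.000491). Kit had 697 and 702 CPM (counts per gene scaled to a common TMM-adjusted library total, as counts-per-million) in KO and 617 and 708 CPM in WT. Ly6a, which encodes Sca-1, had 37.3 and 67.0 CPM in KO and 47.7 and 36.9 CPM in WT. The T cell gene Cd3e was at 0.995 and 0.305 CPM in KO and 0.0718 and 0.161 CPM in WT. The progenitor marker Cd34 was called lower and Itgam, a lineage marker, higher in KO. The Cd34 call was lost in edgeR with upper quartile factors and with scaling by total counts. Cd34 did not pass without KO replicate 2 (adjusted p = 0.0933), WT replicate 1 (0.231) or WT replicate 2 (0.174), and Itgam did not pass without WT replicate 1 (0.301) or WT replicate 2 (0.144). WT replicate 2 stood apart in sex pattern: it had 606 counts of Xist and 5606 counts over 4 Y-linked genes, whereas the 3 other libraries had 160613 to 230977 counts of Xist and 9 to 14 Y-linked counts. The precursor ribosomal RNA Rn45s took 14.6% and 9.37% of the counts in KO and 15.3% and 15.7% in WT.

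Of the 8 sterol genes, Idi1 alone passed the test. It was 3.07-fold lower in KO, while the other 7 had negative log2 fold changes from -0.82 to -0.17 that missed the threshold. Across all 14140 genes tested, 3.01% were called lower and 3.77% higher in KO at an adjusted p under 0.05, so 1 of 8 called lower is a count of a single gene. The median log2 fold change of the 8 genes was -0.66, and that of all genes tested was 0.015. All 8 fold changes were negative, against 48.8% of all genes tested. For 6 of the 8, Hmgcs1, Idi1, Fdps, Fdft1, Cyp51 and Insig1, both KO libraries lay below both WT libraries, which was the case for 27.6% of all genes tested. The 8 genes were chosen with earlier results of these data known, so these comparisons with all genes are descriptions only. In bulk RNA, fewer cells that express a gene and less of its RNA per cell cannot be told apart.

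**Figure D1:**
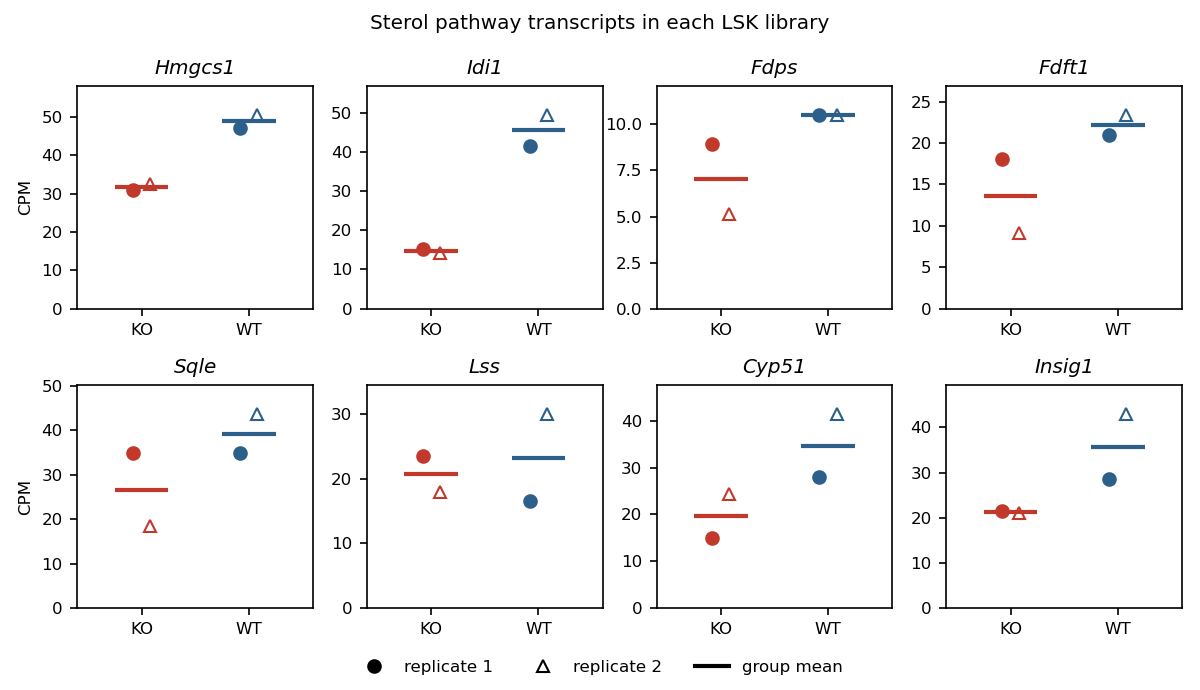
Normalised level (CPM, axes from 0) of each of the 8 genes in 2 KO libraries (left, red) and 2 WT libraries (right, blue); circles are replicate 1, triangles replicate 2 and bars group means. Idi1 shows the widest gap, with 15.3 and 14.3 CPM in KO and 41.6 and 49.4 CPM in WT, whereas the groups overlap for Sqle and Lss.

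The mevalonate arm held the called gene. Idi1, the isomerase that makes dimethylallyl pyrophosphate from isopentenyl pyrophosphate, had 339 and 281 counts in KO and 1157 and 1226 counts in WT. These were 15.3 and 14.3 CPM in KO and 41.6 and 49.4 CPM in WT, with means of 14.8 ± 0.743 CPM in KO and 45.5 ± 5.51 CPM in WT (SD, n = 2 each). The KO libraries lay close together and far below both WT libraries. The log2 fold change was -1.62 (SE 0.24, 95% interval -2.14 to -1.10, edgeR quasi-likelihood test, adjusted p = 0.00325). Idi1 (ENSMUSG00000058258.14) is a protein-coding gene on the plus strand of chromosome 13, from 8885501 to 8892451 in mm10.

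Hmgcs1 (chr13:119690379-119708260, plus strand) encodes the cytosolic HMG-CoA synthase at the entry to the mevalonate route. It had 30.9 and 32.6 CPM in KO and 47.2 and 50.5 CPM in WT. The groups were apart and both pairs of replicates were tight, yet the adjusted p was 0.0864 in the edgeR test (log2 fold change -0.62, SE 0.20, 95% interval -1.06 to -0.18). Fdps (chr3:89093588-89101959, minus strand), the synthase of farnesyl pyrophosphate at the branch to sterols and prenylated proteins, was the lowest of the 8 in CPM. It had 8.95 and 5.13 CPM in KO and 10.5 and 10.5 CPM in WT (log2 fold change -0.57, SE 0.38, 95% interval -1.41 to 0.27, adjusted p = 0.381). KO replicate 1 was close to the WT libraries for this gene and KO replicate 2 was well below them.

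In the arm from squalene to sterols, KO replicate 2 stood lowest for the first enzymes. Fdft1 (chr14:63145150-63179578, minus strand), squalene synthase, had 18.1 and 9.20 CPM in KO and 21.0 and 23.4 CPM in WT (log2 fold change -0.70, SE 0.34, adjusted p = 0.227). Sqle (chr15:59315077-59331192, plus strand), the epoxidase that oxidises squalene, had 34.95 and 18.4 CPM in KO and 34.8 and 43.6 CPM in WT (log2 fold change -0.56, SE 0.30, adjusted p = 0.274). KO replicate 1 was at the level of WT replicate 1 for Sqle, so the groups overlapped there. The ratio of KO replicate 1 to KO replicate 2 was 1.97 for Fdft1, 1.90 for Sqle and 1.74 for Fdps, against 1.07 for Idi1, 0.948 for Hmgcs1 and 1.03 for Insig1.

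Lss (chr10:76531588-76557138, plus strand), the cyclase that makes lanosterol, had the most mixed values. It had 23.5 and 18.0 CPM in KO and 16.6 and 30.0 CPM in WT (log2 fold change -0.17, SE 0.32, 95% interval -0.86 to 0.53, adjusted p = 0.789). Both KO libraries lay between the WT libraries. Cyp51 (chr5:4081145-4104746, minus strand), the cytochrome P450 that demethylates lanosterol, had 15.1 and 24.3 CPM in KO and 27.9 and 41.4 CPM in WT (log2 fold change -0.82, SE 0.30, 95% interval -1.47 to -0.16, adjusted p = 0.118). Here KO replicate 1 was the lower of the KO pair, the reverse of Fdft1 and Sqle. Exons of Cyp51 overlap those of Akap9 on the other strand, and exons of Fdft1 overlap those of Ctsb; the strand setting of the counting is not given, so reads from the shared stretches cannot be assigned to one of the pair. Exons of Idi1, Hmgcs1 and Fdps overlap GENCODE models that have no row in the table.

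Insig1 (chr5:28071363-28078662, plus strand), the sterol-sensing anchor of SCAP, had 21.5 and 20.9 CPM in KO and 28.6 and 42.9 CPM in WT (log2 fold change -0.75, SE 0.26, 95% interval -1.32 to -0.18, adjusted p = 0.101). The KO pair was tight, and the WT pair differed by a ratio of 1.499. Its paralog Insig2, which is not driven by SREBP2 in the same way, had 21.2 and 21.3 CPM in KO and 17.9 and 18.6 CPM in WT (log2 fold change 0.22, SE 0.26, adjusted p = 0.641). The difference between the paralogs was not tested. The paralog Idi2, which could draw reads from Idi1, was near the count floor, with 0 and 8 counts in KO and 0 and 0 in WT.

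Replicates of a group differed in the same direction for many of these genes. WT replicate 2 exceeded WT replicate 1 for 8 of the 8 genes, a relation that held for 50.1% of all genes tested. The gap ran from a ratio of 1.002 for Fdps to 1.81 for Lss, with 1.499 for Insig1 and 1.48 for Cyp51. KO replicate 2 was below KO replicate 1 for 6 of 8, against 50.8% of all genes tested, with Cyp51 and Hmgcs1 as the exceptions. Summed over the 8 genes, the level was 168 and 143 CPM in KO and 228 and 292 CPM in WT. WT replicate 2 is the library with the Y-linked pattern, and sex pattern and library cannot be told apart within the WT group.

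**Figure D2:**
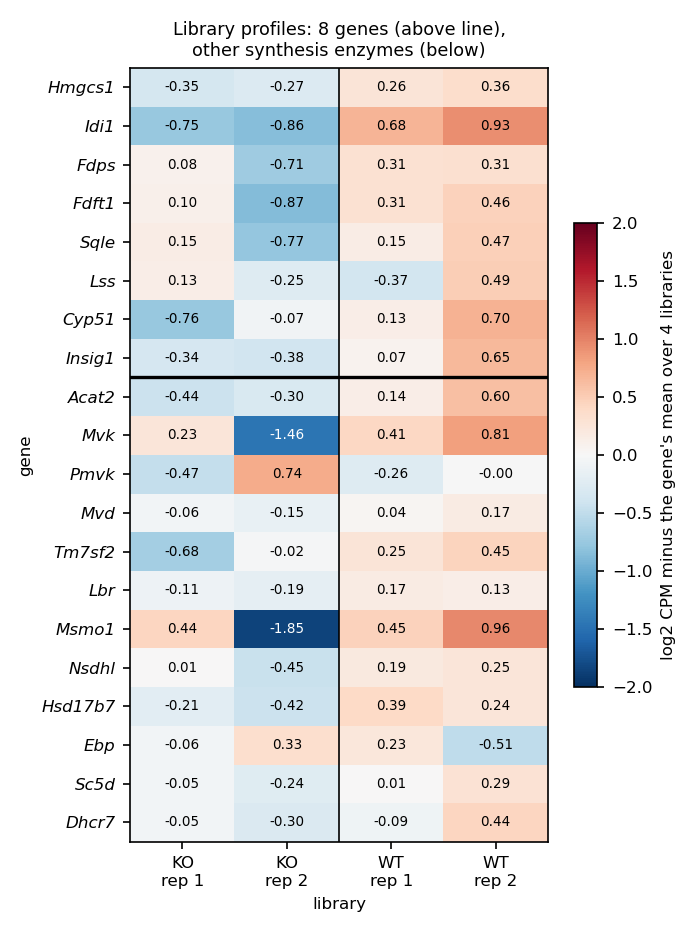
Log2 CPM of each gene minus its mean over the 4 libraries, for the 8 genes (above the line) and the other synthesis enzymes (below), with KO libraries at left and WT libraries at right; red is above the gene's mean and blue below it. Idi1 is at -0.75 and -0.86 in KO and 0.68 and 0.93 in WT, while Fdps, Fdft1 and Sqle are below their means in KO replicate 2 but not in KO replicate 1.

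Levels were compared between genes after division by the longest coding transcript in GENCODE vM21. In CPM per kilobase, the 8 genes spanned 3.70 to 9.67 on average in KO and 4.99 to 15.02 in WT. In KO the order from the top was Sqle (9.67 ± 4.25), Hmgcs1 (9.17 ± 0.346), Insig1 (7.87 ± 0.154), Fdps (5.10 ± 1.95), Cyp51 (5.01 ± 1.67), Idi1 (4.89 ± 0.245), Lss (4.45 ± 0.837) and Fdft1 (3.70 ± 1.71). In WT it was Idi1 (15.02 ± 1.82), Sqle (14.2 ± 2.25), Hmgcs1 (14.1 ± 0.671), Insig1 (13.3 ± 3.74), Cyp51 (8.82 ± 2.42), Fdps (7.60 ± 0.009), Fdft1 (6.003 ± 0.454) and Lss (4.99 ± 2.04), with SD over n = 2 in both lists. Idi1 was thus among the 4 highest levels in WT, where those 4 lie within their spread of each other, and among the 5 lowest in KO, where those 5 do. The steps larger than the SDs of both neighbours were those from Hmgcs1 to Insig1 and from Insig1 to Fdps in KO, and those from Insig1 to Cyp51 and from Fdps to Fdft1 in WT. The order depends on the transcript length used: per kilobase of all annotated exons, Fdps averaged 1.67 in KO and 2.49 in WT and was the lowest of the 8 in KO, and Lss averaged 1.92 in KO and 2.16 in WT and was the lowest in WT.

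Leaving out each library in turn separated the genes further. Idi1 kept an adjusted p under 0.05 in all 4 fits, with log2 fold changes from -1.74 to -1.50. Its weakest fit was the one without WT replicate 2, between libraries of the same sex pattern (-1.50, adjusted p = 0.0388). Hmgcs1 moved little, from -0.67 to -0.59, and passed in none of the 4. Sqle was at -1.10 without KO replicate 1 (adjusted p = 0.0155) and at -0.17 without KO replicate 2 (adjusted p = 0.759), and Fdft1 was at -1.28 (adjusted p = 0.0232) and -0.30 (adjusted p = 0.657) in the same fits, so 1 KO library decides the size for both. Fdps was at -1.04 and -0.24 in these fits and passed in neither (adjusted p = 0.106 and 0.782). Cyp51 did the reverse, at -0.52 without KO replicate 1 (adjusted p = 0.274) and -1.21 without KO replicate 2 (adjusted p = 0.0230). Without WT replicate 2, Insig1 was at -0.45 (adjusted p = 0.541) and Lss turned to 0.31 (adjusted p = 0.726). A group of 1 library in such a fit is assumed to vary like the other group.

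**Figure D3:**
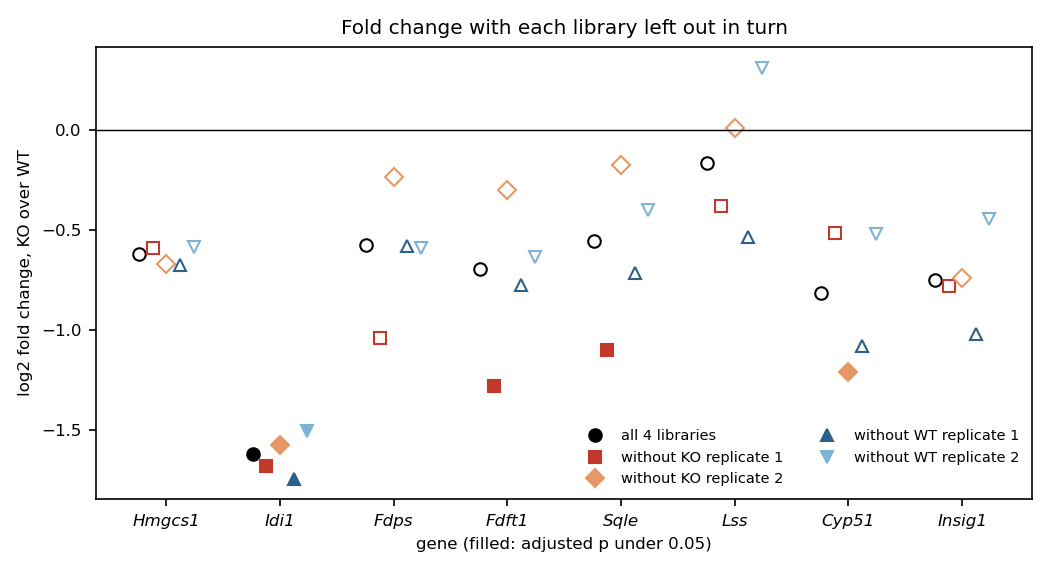
Log2 fold change, KO over WT, of the 8 genes with all 4 libraries (black) and with each library left out (colours); filled symbols passed an adjusted p of 0.05 in edgeR. Idi1 is filled throughout, from -1.74 to -1.50 with a library left out, and Lss crosses 0.

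Other steps of the cholesterol route were read from a list of 13 further enzymes, of which 12 were tested. None of these 12 passed in either direction; the fold change was negative in 10 of 12, with a median of -0.39. Acat2, which condenses acetyl-CoA at the entry, had 15.6 and 17.1 CPM in KO and 23.2 and 31.9 CPM in WT (adjusted p = 0.112). Hsd17b7, a reductase of sterol demethylation, had 22.7 and 19.6 CPM in KO and 34.6 and 31.0 CPM in WT (adjusted p = 0.129). Lbr, a sterol reductase that is also the lamin B receptor, had 188 and 178 CPM in KO and 227 and 221 CPM in WT (adjusted p = 0.234).

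Some other enzymes shared the low value of KO replicate 2 seen for Fdft1 and Sqle. Msmo1, the oxidase that removes sterol methyl groups, had 8.73 and 1.73 CPM in KO and 8.84 and 12.6 CPM in WT. Mvk, mevalonate kinase, had 4.79 and 1.42 CPM in KO and 5.42 and 7.21 CPM in WT. For both, KO replicate 1 was near WT replicate 1 and KO replicate 2 was far below, and neither passed (adjusted p = 0.308 and 0.309). Pmvk, the next kinase, went the other way in that library, with 12.1 and 28.1 CPM in KO and 14.0 and 16.8 CPM in WT (adjusted p = 0.559).

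**Figure D4:**
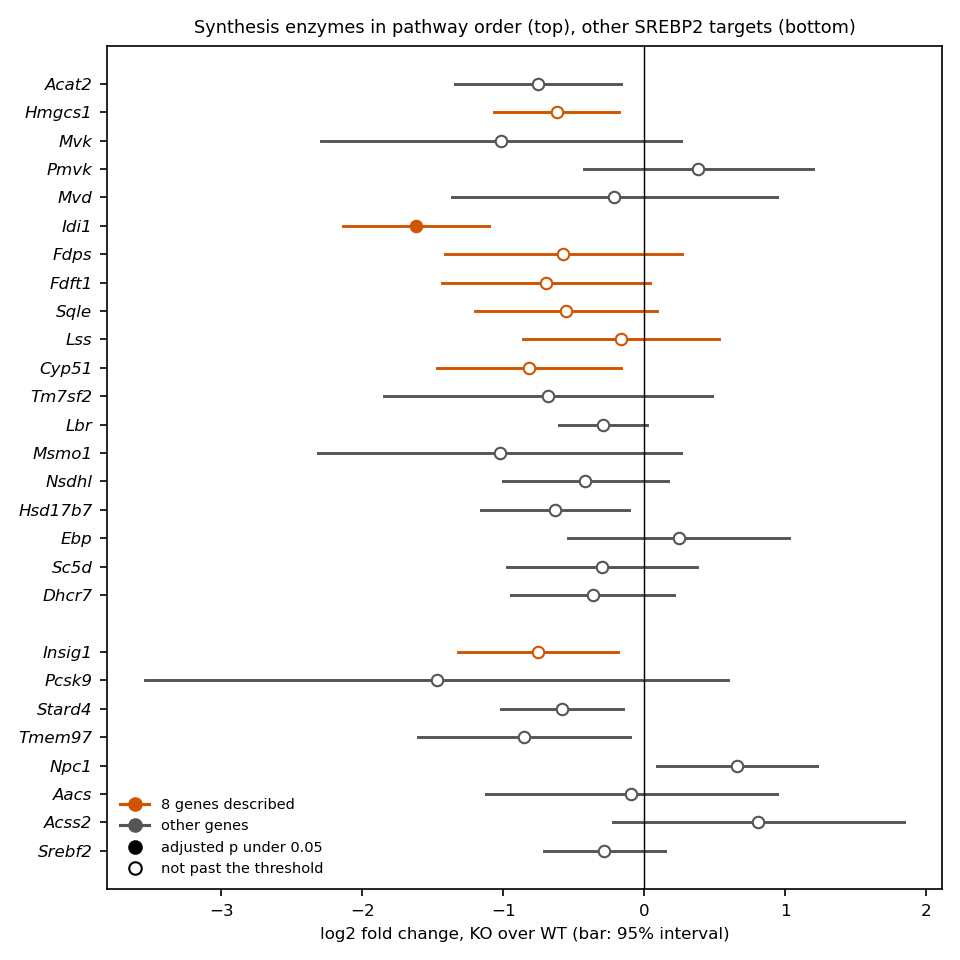
Log2 fold change, KO over WT, with 95% intervals for synthesis enzymes in pathway order (top) and other SREBP2 targets (bottom); orange marks the 8 genes, and filled points passed an adjusted p of 0.05. Idi1 at -1.62 is the one filled point among the genes plotted.

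Of 7 other SREBP2 targets listed, none passed in either direction, 5 had a negative fold change and the median was -0.28. Stard4, a carrier of sterols between membranes, had 35.5 and 35.3 CPM in KO and 56.5 and 49.8 CPM in WT (log2 fold change -0.58, adjusted p = 0.0974). Npc1, which exports cholesterol from lysosomes, had 88.0 and 114 CPM in KO and 44.9 and 83.3 CPM in WT (log2 fold change 0.66, adjusted p = 0.142). Tmem97, a membrane protein of the endoplasmic reticulum that binds sterols, had 6.83 and 7.37 CPM in KO and 14.7 and 11.0 CPM in WT (log2 fold change -0.85, SE 0.34, adjusted p = 0.151). Both KO libraries lay below both WT libraries for Stard4 and Tmem97, and above them for Npc1.

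The listed regulators of the route showed no call. Of 10 genes of SREBP control, which include Insig1, none passed and the median log2 fold change was -0.05. Srebf2, the gene of SREBP2 itself, had 144 and 124 CPM in KO and 131 and 196 CPM in WT (log2 fold change -0.28, SE 0.20, adjusted p = 0.395). Scap had 81.0 and 65.5 CPM in KO and 91.4 and 103 CPM in WT (log2 fold change -0.41, SE 0.18, adjusted p = 0.182). Srebf1, the gene of the related factor SREBP1, had 37.6 and 22.9 CPM in KO and 43.2 and 34.7 CPM in WT (log2 fold change -0.36, SE 0.27, adjusted p = 0.426). These transcript levels do not measure how much SREBP2 was cut or bound.

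The branches beside the sterol arm were also without a call. Of 11 genes that use farnesyl pyrophosphate or its products, none passed and the median was -0.05. Nus1, a subunit of the dolichol synthase, had 71.4 and 69.7 CPM in KO and 94.8 and 91.5 CPM in WT (log2 fold change -0.40, adjusted p = 0.159). Fntb, the beta subunit of farnesyltransferase, had 18.5 and 18.0 CPM in KO and 24.03 and 26.6 CPM in WT (log2 fold change -0.47, adjusted p = 0.276). Pggt1b, the beta subunit of the enzyme that adds geranylgeranyl groups, had 21.6 and 22.3 CPM in KO and 34.0 and 25.1 CPM in WT (log2 fold change -0.43, adjusted p = 0.321). Of 8 genes of LXR signalling and sterol efflux, none passed and the median was 0.07. Apoe had 5.74 and 7.62 CPM in KO and 3.16 and 1.73 CPM in WT (log2 fold change 1.44, adjusted p = 0.110). Abca1, which exports cholesterol, had 56.1 and 77.6 CPM in KO and 36.3 and 62.0 CPM in WT, and Abcg1, another exporter, had 61.5 and 79.1 CPM in KO and 78.7 and 98.4 CPM in WT (adjusted p = 0.316 and 0.314).

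The fatty acid arm, driven mainly by the related factor SREBP1, moved in both directions. Of 10 genes 4 fell, 1 rose and 5 did not pass, with a median of -0.49. Scd2, a desaturase, had 227 and 175 CPM in KO and 473 and 530 CPM in WT (log2 fold change -1.32, SE 0.16, adjusted p = 0.00110). Elovl6, an elongase (-0.75), the synthase gene Fasn (-0.67) and the carboxylase gene Acaca (-0.65) also fell (adjusted p = 0.0237, 0.0298 and 0.0443). Acaca did not pass in edgeR with upper quartile factors (adjusted p = 0.0687) or with scaling by total counts (0.119), and Fasn did not with total counts (0.0593). Scd1, a paralog of Scd2, rose, with 16.1 and 8.79 CPM in KO and 2.01 and 3.90 CPM in WT (log2 fold change 2.08, SE 0.47, adjusted p = 0.0258). Without WT replicate 1 or without WT replicate 2, Scd2 was the one gene of the list called lower; Scd1 did not pass in the fits that left out WT replicate 1 (adjusted p = 0.181) and, of the KO pair, replicate 1 (adjusted p = 0.0592), and Fasn without KO replicate 2 (adjusted p = 0.0545). Among those that did not pass, Acly, which supplies acetyl-CoA, had 108 and 107 CPM in KO and 152 and 136 CPM in WT (adjusted p = 0.124), the desaturase gene Fads2 had 19.7 and 23.8 CPM in KO and 28.2 and 36.1 CPM in WT (adjusted p = 0.192), and Acss2, also an SREBP2 target, had 5.11 and 13.3 CPM in KO and 5.35 and 5.11 CPM in WT (adjusted p = 0.316). Reads of the paired desaturases Scd1 and Scd2 may be hard to assign where their sequences are alike.

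Proliferation and cell type markers differed between the same libraries. Of 15 cell cycle genes 13 fell and none rose, with a median of -1.02, and their summed level was 2955 and 2822 CPM in KO and 4958 and 4942 CPM in WT. The called genes were Top2a, Ccnb1, Ccnb2, Bub1b, Tpx2, Cdk1, Aurkb, Plk1, Ccna2, Mcm2, Mcm3, Mcm5 and Pcna, and Mki67 and Mcm6 did not pass. Without WT replicate 1 there were 6 such calls and without WT replicate 2 there were 7. Of 12 dendritic cell markers 7 rose (H2-Aa, H2-Ab1, H2-Eb1, Cd74, Xcr1, Clec9a and Batf3), with a summed level of 1619 and 1491 CPM in KO and 585 and 616 CPM in WT; Batf3 was at 0 in both WT libraries, and it passed in 1 of the 4 fits with a library left out, the one without KO replicate 2. Of 11 mast cell markers 7 rose (Cpa3, Cma1, Tpsb2, Hdc, Mcpt4, Tpsab1 and Ms4a2), with 452 and 290 CPM in KO and 156 and 157 CPM in WT; Ms4a2 did not pass without WT replicate 2 (adjusted p = 0.117). Of 10 macrophage markers Fn1 and Itgam rose, with 215 and 193 CPM in KO and 79.7 and 89.6 CPM in WT, and no mast cell or macrophage marker was at 0 in any library. In WT most of the mast cell and dendritic cell sums came from Gata2 and Flt3, which were not called. Gata2 had 224 and 159 CPM in KO and 132 and 137 CPM in WT. Flt3, also an LSK marker, had 545 and 607 CPM in KO and 418 and 456 CPM in WT. The part of the proliferation and cell type markers in the sterol gene values was not tested.

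The genes whose profile over the 4 libraries lay nearest to the mean profile of the 8 sterol genes were ranked among 10118 genes that averaged 5 CPM or more. The 8 genes themselves and gene models with Gm, LOC or Rik symbols were left out of the ranking. The mean profile of the 8 genes was -0.22 and -0.52 in KO and 0.19 and 0.55 in WT, as log2 CPM minus the mean over the libraries. The nearest were Dscc1, Cdc20, Prc1, Tex261 and Foxm1, at root mean square distances of 0.010, 0.012, 0.028, 0.043 and 0.050 on the log2 scale. Prc1, for example, had 58.5 and 46.1 CPM in KO and 78.3 and 102 CPM in WT (log2 fold change -0.79, adjusted p = 0.0405). Of these, Dscc1, Cdc20, Prc1 and Foxm1 also act in the cell cycle but were not on the cell cycle list above. The genes that were on that list lay farther off, from rank 215 for Mcm5 to rank 5350 for Cdk1. Of the fatty acid genes, Elovl6 ranked at 73, Fasn at 175 and Scd1 at 10018. Single sterol genes also differed from their mean profile, as Fdft1 did with 0.10 and -0.87 in KO and 0.31 and 0.46 in WT. With 4 libraries many genes lie close to any profile, so the ranking is a description.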

How the data were processed

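The authors deposited raw read counts per gene symbol for the 4 libraries. Per the labels' protocols, 20 ng of total RNA went into NuGEN Ovation Ultralow libraries, sequenced for 76 cycles on a NextSeq 500. TopHat2 2.1.1, SAMtools 1.5, Picard 2.9.4, HTSeq 0.8.0 and the build mm10 are named, per the submitters' processing notes; annotation, strand setting and duplicate handling: not given in the sources used here.

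Counts were tested as deposited in edgeR 4.0.16 (R 4.3.3) with TMM factors, filterByExpr (minimum count 10, minimum total count 15) and the quasi-likelihood test, KO over WT, without covariates. Of 24421 genes 14140 were tested, with Benjamini-Hochberg adjustment over all of them and 0.05 as the threshold. SEs came from the F statistic; the common biological coefficient of variation was 0.266. Log2 CPM profiles used a prior count of 2. A floor of 3 counts is 0.108 to 0.152 CPM and covers counting error only. The fitting step was tested on simulated data. Levels per length used GENCODE vM21, whose models may differ from those counted. Alternatives were DESeq2 1.42.0, voom in limma 3.58.1, other scaling factors and filters, a replicate block, Rn45s left out and each library left out.

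The 8 genes and the lists were chosen with earlier results of these data known. The rule names the 8 genes, list genes past the threshold, up to 3 further genes of each pathway list by smallest p, Zfp521, paralogs and the 5 nearest profiles. Some genes of these lists and a paralog are not reported here and were left out of list counts and figures, whether or not they passed the test. Msmo1, Mvk, Pmvk, Kit, Ly6a and Cd3e were named after their values were seen.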

Additional observations from a re-analysis of the deposited data

How the results depend on the processing

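Idi1 was called in all 13 alternatives, from -1.74 to -1.47, and the other 7 sterol genes kept a negative fold change in all of them except Lss, which ranged from -0.54 to 0.31 with a library left out and was above 0 without KO replicate 2 (0.0074) and without WT replicate 2 (0.31); those fits remove the lowest KO library or the highest WT library of that gene. The number of the 8 genes called was 1 with all 4 libraries, 2 with the DESeq2 test (Idi1 and Hmgcs1), 3 with no filter, 4 with the replicate block, and 1 to 3 with a library left out. Other sterol and lipid genes called numbered 5, 3 with total counts, 11 with the replicate block and 1 to 8 with a library left out. Over all genes 958 were called, 1670 with the DESeq2 test, 2043 with no filter, 2626 with the replicate block, and 255 to 2158 with a library left out. Cell cycle genes called numbered 13, and 6 to 14 with a library left out. The cause of these shifts was not tested. The numbers pair the samples only by name, so the replicate block has no support in the labels. Over 10571 genes the deviations of same-numbered libraries correlated at 0.12, and 2 pairs cannot decide whether the samples were paired. Scaling by total counts moved the median of all genes to 0.17, where the median of the 8 sterol genes was -0.51. Of the calls over all genes 664 were higher and 289 lower with upper quartile factors and 848 and 257 with total counts, against 533 and 425 with TMM factors. With 2 libraries per group, 6 of the 7 genes that were not called, all but Lss, had a 95% interval that reached past 2-fold lower in KO at 1 end and at the other end lay between -0.18 and 0.27 on the log2 scale.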
